A study of Homo sapiens with 9 samples.

Results

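Interferon-stimulated and antigen presentation genes are transcribed when interferon signals to a cell, and their products restrict viruses, sense foreign nucleic acid and display peptides on the cell surface. A list of 46 such genes was drawn up by name, with earlier results of these data known. It was looked up by symbol in a table of 58299 genes counted in AC16 cells, and all 46 were found (RIG-I is listed under its older symbol DDX58). AC16 is a human line made by fusing adult ventricular heart cells with SV40-transformed fibroblasts. The 3 groups of 3 libraries were AC16 cells with 100 nM CDDO-Me for 72 h, AC16 cells with 100 nM CDDO-Me for 24 h, and AC16 cells with the vehicle, 0.1% DMSO, for 72 h. CDDO-Me, also called bardoxolone methyl, is a man-made triterpenoid that frees the transcription factor NRF2 from its repressor KEAP1. The labels name no interferon, virus or nucleic acid for any group. The vehicle had only the 72 h time. Culture time and treatment thus cannot be told apart at 24 h against DMSO, nor culture time and treatment time between 72 h and 24 h.

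As background, type I interferon binds a receptor pair, IFNAR1 and IFNAR2, whose kinases JAK1 and TYK2 phosphorylate STAT2. STAT2 and IRF9 are subunits of the complex ISGF3, which binds the interferon-stimulated response element (ISRE) before many of the genes described here, while the GAS element is found before interferon gamma targets. Class I antigen presentation needs the HLA heavy chains, their light chain B2M and the TAP transporter that brings peptides into the endoplasmic reticulum.

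Most of these genes with a promoter window, though not all, held an ISRE core there. The genes were listed by name as interferon-stimulated or antigen presentation genes, so this describes the list and not these libraries. RefSeq promoter windows (GRCh38.p14, 250 bases before to 50 after a start) were matched by symbol for 37 of the 46 genes, in 49 windows. The ISRE core, searched as GAAANNGAAA on both strands, was in the window of 24 of the 37 genes (64.9%), against 4.38% of all 27305 genes with a window. A GAS element, searched as TTCNNNGAA (its own reverse complement), was found for 11 genes (29.7%), against 9.38% of all genes. The core of the antioxidant response element that NRF2 binds, searched as TGACNNNGC on both strands, was found for 8 genes (21.6%), against 16.1% of all genes. These matches are letters in a window and were not tested as binding sites, and the motifs were scored over the whole windows. The 250 bases before the start are printed for 6 genes, 5′ to 3′ on the gene's strand, with ISRE core matches in capitals. IFIT3 and IFI35 are shown because they are the members past the threshold at 72 h with a RefSeq window, IFIT1 and ISG15 because they are standard ISRE genes that did not pass, and TAP1 and HLA-C for antigen presentation.
IFIT3: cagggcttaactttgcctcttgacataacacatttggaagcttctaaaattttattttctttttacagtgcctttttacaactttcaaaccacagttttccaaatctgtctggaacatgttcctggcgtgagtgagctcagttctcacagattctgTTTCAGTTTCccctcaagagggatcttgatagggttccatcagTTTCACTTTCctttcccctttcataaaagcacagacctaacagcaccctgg
IFI35: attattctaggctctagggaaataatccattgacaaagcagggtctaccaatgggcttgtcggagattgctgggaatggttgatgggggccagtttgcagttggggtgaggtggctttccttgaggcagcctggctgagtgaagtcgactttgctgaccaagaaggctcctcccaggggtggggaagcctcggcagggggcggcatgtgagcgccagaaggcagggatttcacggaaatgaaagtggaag
IFIT1: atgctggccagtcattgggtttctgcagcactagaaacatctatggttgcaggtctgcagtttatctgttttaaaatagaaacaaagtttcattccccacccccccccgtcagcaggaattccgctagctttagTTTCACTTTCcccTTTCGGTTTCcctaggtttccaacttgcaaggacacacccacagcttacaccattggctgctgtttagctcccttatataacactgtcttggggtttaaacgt
ISG15: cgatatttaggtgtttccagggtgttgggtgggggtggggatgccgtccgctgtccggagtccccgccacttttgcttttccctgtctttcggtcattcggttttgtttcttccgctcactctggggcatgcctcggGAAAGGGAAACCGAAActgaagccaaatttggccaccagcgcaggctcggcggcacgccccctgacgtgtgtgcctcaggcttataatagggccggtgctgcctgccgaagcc
TAP1: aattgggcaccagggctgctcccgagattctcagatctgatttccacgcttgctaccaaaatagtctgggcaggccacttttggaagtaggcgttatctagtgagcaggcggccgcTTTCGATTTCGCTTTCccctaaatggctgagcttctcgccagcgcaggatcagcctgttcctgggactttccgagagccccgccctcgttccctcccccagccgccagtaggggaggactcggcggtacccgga
HLA-C: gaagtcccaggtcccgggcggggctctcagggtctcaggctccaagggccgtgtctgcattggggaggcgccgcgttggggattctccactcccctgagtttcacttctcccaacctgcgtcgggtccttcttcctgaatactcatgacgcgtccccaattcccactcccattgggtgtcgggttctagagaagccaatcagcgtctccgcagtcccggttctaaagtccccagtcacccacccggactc
The stretches lie at chr10:89332279-89332528 (plus strand) for IFIT3, at chr17:43006534-43006783 (plus strand) for IFI35 and at chr10:89392373-89392622 (plus strand) for IFIT1. Those of ISG15, TAP1 and HLA-C lie at chr1:1013247-1013496 (plus strand), chr6:32853705-32853954 (minus strand) and chr6:31272093-31272342 (minus strand). IFIT3, which was lower at 72 h, and IFIT1 and ISG15, which did not pass, each had 2 ISRE cores in the stretch shown. IFIT3 and TAP1 have 2 windows each, of which the second of IFIT3 (the first also held 2 cores) and the first of TAP1 are shown. The second window of TAP1 held 0 ISRE cores and 1 GAS element. IFI35, which was higher at 72 h, had no ISRE core in its window and held 1 GAS element and 1 antioxidant response core. TAP1 had 2 overlapping ISRE cores in the window shown, and the windows of HLA-B and HLA-C held none of the 3 motifs in these letters.

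The class I genes were the most expressed of the members in AC16 cells, and several virus-restricting genes were among the least. Of the 46 genes, 40 passed the filter on low counts, and over all 9 libraries 11 of these had a mean above 10 RPKM (read counts scaled to library size and exon length), 20 lay between 1 and 10, and 9 lay under 1. Of all 14965 tested genes, 4660 had a mean above 10 RPKM, 6665 lay between and 3640 lay under 1. The median of the 40 was 3.16 RPKM, against 4.27 RPKM over all 14965 tested genes. The class I heavy chains HLA-C and HLA-B led at 157 and 131 RPKM, followed by their light chain B2M at 83.9 RPKM. IFITM3, a membrane protein that blocks virus entry, stood at 74.7 RPKM, IFI6, a stress-protective protein of the endoplasmic reticulum, at 55.1 RPKM, and ISG15, a ubiquitin-like modifier, at 43.5 RPKM. At the other end stood IRF9, the DNA-binding subunit of ISGF3, at 0.253 RPKM, OAS2 at 0.241 RPKM, the GTPase gene MX1 at 0.185 RPKM, the exonuclease gene ISG20 at 0.141 RPKM and IFI27 at 0.104 RPKM. The line carried the ISGF3 subunit gene STAT2 at 11.8 RPKM, many times the level counted for IRF9. IRF9 shares 48.4% of its exon bases with an unnamed gene on the same strand. Reads there may not have been counted for IRF9, so its RPKM is uncertain and may be too low. The libraries were unstranded, so reads shared with a gene on the other strand may be lost as well. XAF1 shares 38.3% of its exon bases with PRAL in this way, IRF1 22.0% with IRF1-AS1 and IFITM3 21.3% with an unnamed gene.

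Library totals were 16898977 to 27910031 counts, and 2 libraries stood apart. The highest total was that of CDDO-Me 24 h replicate 3, and the next was 20704953 counts in CDDO-Me 72 h replicate 1. The part of sequencing depth in the results was not tested. CDDO-Me 24 h replicate 3 held the lowest CPM (read counts relative to the size of each library) of all 9 libraries for 15 of the 40 tested members and the highest for 0, whereas over all tested genes it held the lowest for 16.4% and the highest for 16.1%. Its median log2 ratio to the DMSO mean over the 40 members was −0.25, against 0.25 and 0.32 in the other 24 h libraries. The 72 h libraries stood at 0.19, 0.12 and 0.08, and the DMSO libraries at −0.10, 0.02 and 0.08. The same 24 h library was also lowest for summed fibroblast markers, with 12686 CPM, against 19183 and 18003 CPM in the other 24 h libraries, 17380 to 17884 CPM at 72 h and 15203 to 16551 CPM in DMSO. DMSO replicate 1 held the lowest CPM for 10 tested members and the highest for 5, and over all tested genes it held each for 13.3%. The 72 h libraries were close to each other, with a median coefficient of variation of 7.86% over the members, against 22.8% at 24 h and 16.9% in DMSO. Over all tested genes these medians were 5.74%, 12.9% and 10.8%. Results below are given with all 9 libraries and, where it changes a call, without CDDO-Me 24 h replicate 3. Immune cell markers were near 0: 3 of 14 passed the filter, the sum of the 14 was 2.62 to 3.45 CPM at 72 h, 3.14 to 5.42 CPM at 24 h and 4.29 to 4.79 CPM in DMSO, and CD3E, CD3D, MS4A1, NKG7 and CLEC4C were at 0 in all 9 libraries. Of 10 cardiomyocyte markers, 1 passed the filter, GATA4, and MYH6, MYH7, NKX2-5, PLN and RYR2 were at 0 in all libraries. The sum of the 10 was 20.8 to 22.4 CPM at 72 h, 18.5 to 24.5 CPM at 24 h and 25.6 to 26.5 CPM in DMSO. All 10 fibroblast markers passed the filter. At 72 h against DMSO 1 of them, PDGFRA, fell (adjusted p 0.0376 by edgeR) and 0 rose past the threshold. These cells, which the title calls cardiomyocytes, thus lacked the heart muscle markers named at 0 and held GATA4. The summed epithelial and endothelial markers were lower at 72 h than in DMSO. Of 5 epithelial markers 3 passed the filter and KRT5 was at 0 in all libraries. Their sum was 121 to 129 CPM at 72 h, 143 to 206 CPM at 24 h and 204 to 249.7 CPM in DMSO. Most of it was the keratin gene KRT18, which fell at 72 h (adjusted p 0.000236 by edgeR). Of 6 endothelial markers 5 passed the filter. Their sum was 8.28 to 9.18 CPM at 72 h, 11.5 to 12.8 CPM at 24 h and 13.6 to 16.4 CPM in DMSO. Most of it was the receptor gene TEK, with −0.83 ± 0.14 (SE, adjusted p 0.00267) at 72 h. CDH5 had 1 count in all. The part of these markers in the members' results was not tested. In bulk RNA, fewer cells that transcribe a gene and less RNA per cell cannot be told apart.

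**Figure D1:**
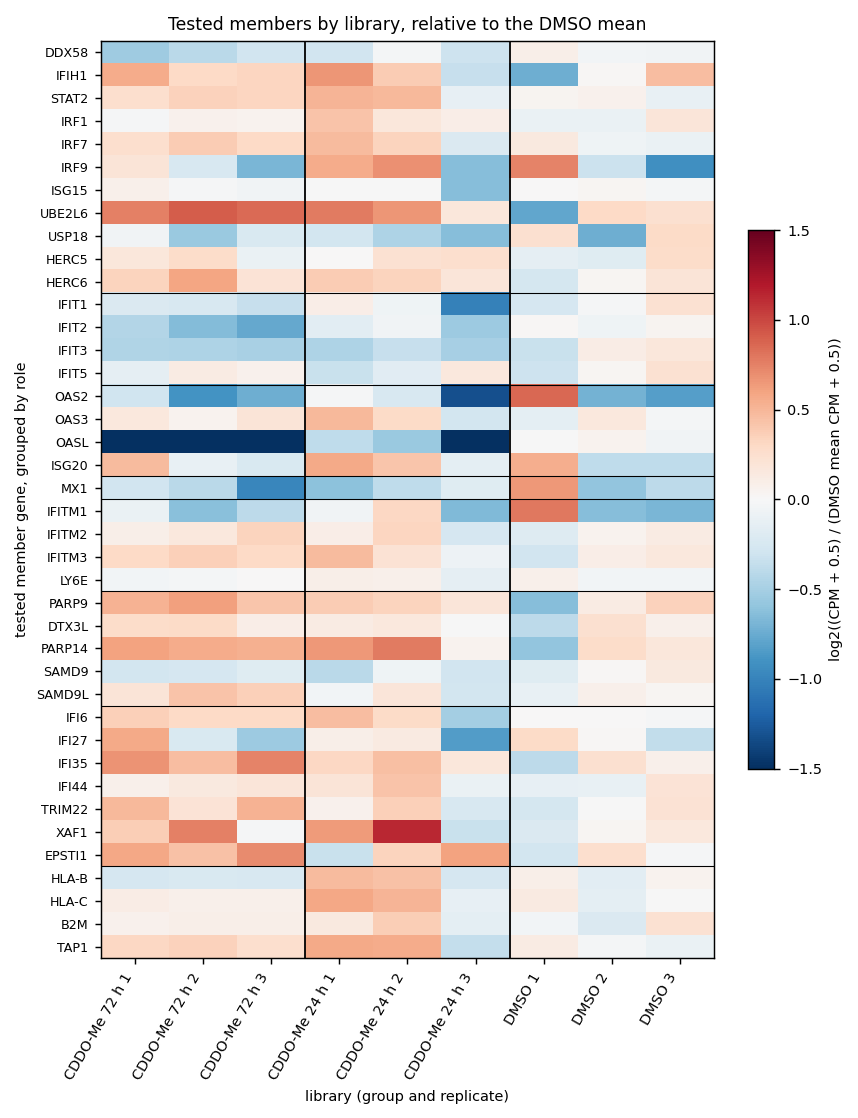
Each row is 1 of the 40 tested members, grouped by role, and each column is 1 library (CDDO-Me 72 h, CDDO-Me 24 h, DMSO), coloured by log2 of its CPM plus 0.5 over the DMSO mean plus 0.5. CDDO-Me 24 h replicate 3 is often blue where replicates 1 and 2 are red, the 72 h columns look alike in most rows, and colours stop at 1.5 in either direction.

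After 72 h of CDDO-Me, few members passed the threshold, and in both directions. Against DMSO, 3 members fell (OASL, IFIT2 and IFIT3) and 1 rose (IFI35), by edgeR's quasi-likelihood test with Benjamini-Hochberg adjustment over all tested genes. These 4 of 40 tested members stand beside 6.02% of all tested genes called (2.89% higher and 3.13% lower). The 72 h and DMSO libraries did not overlap for 12 members that were higher, where 15.5% of all tested genes were apart in that direction, and for 6 that were lower, where 15.2% were. The median log2 fold change of the 40 was 0.13, against −0.00093 over all tested genes, and 27 of them had a positive value. After 24 h of CDDO-Me, 0 of 40 members passed against DMSO, where 2.15% of all tested genes did (0.969% higher and 1.18% lower), with 7 members at an unadjusted p under 0.05 (12.8% of all tested genes). The 24 h and DMSO libraries were apart for 2 members, IFIT3 and OASL, both lower, where 6.74% of all tested genes were apart in that direction, and for 0 that were higher, against 6.73% of all. Between 72 h and 24 h of CDDO-Me, 0 of 40 passed, where 1.02% of all tested genes did, with 5 at an unadjusted p under 0.05 (13.2% of all). The groups of these times were apart for 3 members that were higher at 72 h (PARP9, SAMD9L and IFI35; 10.8% of all tested genes) and 1 that was lower (IRF1; 10.2% of all). By DESeq2 6, 0 and 1 members passed in these comparisons, in that order, beside 1204, 546 and 394 of all genes. By limma-voom 4, 0 and 0 members passed, beside 801, 298 and 114 of all genes. The 4 by limma-voom were OASL, IFIT2, IFI35 and UBE2L6, without IFIT3. Both comparisons with DMSO share the same 3 vehicle libraries.

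Leaving out CDDO-Me 24 h replicate 3 changed these counts. Without it, 10 of 41 tested members passed at 72 h against DMSO (12.9% of all tested genes), 5 higher (IFI6, TAP1, UBE2L6, STAT2 and IFI35) and 5 lower (OASL, IFIT2, IFIT3, DDX58 and HLA-B). At 24 h against DMSO, 9 members passed and all were higher (HLA-B, HLA-C, TAP1, STAT2, IFI6, OAS3, PARP14, IRF7 and XAF1), where 10.8% of all tested genes passed in either direction. Between 72 h and 24 h, 4 members passed and all were lower at 72 h (HLA-B, HLA-C, IFIT2 and OASL), where 12% of all tested genes passed in either direction. These genes are named from this alternative, after their values were seen.

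**Figure D2:**
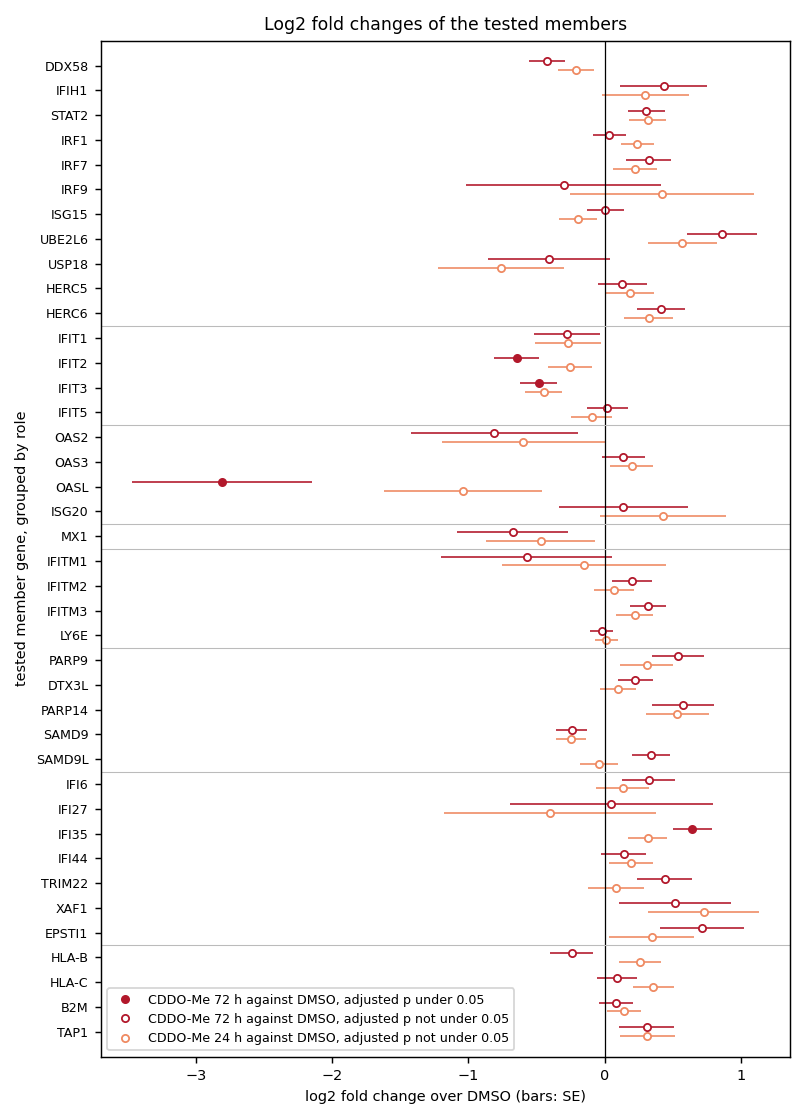
Log2 fold changes over DMSO with SE for the 40 tested members, for CDDO-Me 72 h and CDDO-Me 24 h, from the fit of all 9 libraries, with filled points for an adjusted p under 0.05. Filled points are OASL, IFIT2, IFIT3 and IFI35 at 72 h, and no 24 h point is filled.

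Of the 11 members that sense RNA, carry the signal or run the ISG15 pathway, 0 passed in any comparison with all 9 libraries, although several lay apart at 72 h. DDX58 encodes RIG-I, a cytoplasmic sensor of viral RNA (ENSG00000107201, chromosome 9, 32455705 to 32526324). It had 9.79, 10.7 and 11.6 CPM at 72 h, 11.7, 14.1 and 11.4 CPM at 24 h, and 15.3, 14.0 and 13.8 CPM in DMSO. All 72 h libraries were below all DMSO libraries, and the log2 fold change was −0.42 ± 0.13 (SE, adjusted p 0.0772). It passed without CDDO-Me 24 h replicate 3, at −0.42 (adjusted p 0.0242), by DESeq2 (adjusted p 0.0473) and with only the 2 groups compared (adjusted p 0.0267). IFIH1, the gene of the related sensor MDA5, had 6.64, 5.47 and 5.55 CPM at 72 h, 7.16, 5.83 and 3.33 CPM at 24 h, and 2.43, 4.43 and 6.19 CPM in DMSO, so its groups overlapped, with 0.43 ± 0.32 (SE, adjusted p 0.518) at 72 h. STAT2, the ISGF3 subunit that binds the receptor complex, had 73.8, 79.1 and 77.5 CPM at 72 h, 88.7, 87.1 and 57.1 CPM at 24 h, and 63.8, 65.1 and 57.5 CPM in DMSO. All 72 h libraries and 24 h replicates 1 and 2 were above DMSO, and 24 h replicate 3 was below each DMSO library. The STAT2 difference was 0.31 ± 0.14 (SE, adjusted p 0.245) at 72 h and 0.32 ± 0.14 (SE, adjusted p 0.338) at 24 h, and without 24 h replicate 3 it was 0.31 (adjusted p 0.00628) at 72 h and 0.50 (adjusted p 0.000424) at 24 h.

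The partner of STAT2 in ISGF3, IRF9, had 1.11, 0.690 and 0.374 CPM at 72 h, 1.57, 1.77 and 0.402 CPM at 24 h, and 1.86, 0.625 and 0.242 CPM in DMSO, close to the filter, with no order among groups, and it shares 48.4% of its exon bases with an unnamed gene on the same strand. IRF1, a factor that drives class I genes, had 18.8, 19.9 and 19.6 CPM at 72 h, 25.6, 21.5 and 20.4 CPM at 24 h, and 17.7, 17.7 and 21.6 CPM in DMSO, with all 72 h libraries under all 24 h libraries and both overlapping DMSO. For IRF7, the master factor of interferon alpha genes, the libraries held 14.9, 16.3 and 15.5 CPM at 72 h, 17.5, 15.8 and 10.6 CPM at 24 h, and 13.9, 11.9 and 11.6 CPM in DMSO. The 72 h libraries lay above DMSO, and at 24 h replicates 1 and 2 did and replicate 3 did not. Its 24 h difference was 0.22 ± 0.16 (SE, adjusted p 0.638) with all libraries and 0.42 (adjusted p 0.0358) without replicate 3.

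ISG15, the ubiquitin-like protein attached to targets during an interferon response, had 45.2, 42.2 and 41.2 CPM at 72 h, 42.5, 42.5 and 27.3 CPM at 24 h, and 42.8, 43.6 and 41.7 CPM in DMSO. Apart from 24 h replicate 3 its libraries spanned less than 5 CPM, and its log2 fold change was 0.01 ± 0.14 (SE, adjusted p 0.99) at 72 h and −0.20 ± 0.14 (SE, adjusted p 0.615) at 24 h. UBE2L6, the conjugating enzyme of ISG15, had 23.1, 25.7 and 24.6 CPM at 72 h, 23.5, 21.6 and 15.2 CPM at 24 h, and 7.65, 16.7 and 16.0 CPM in DMSO. Its 72 h libraries were all above DMSO, and the low DMSO value was in replicate 1. The difference at 72 h was 0.86 ± 0.26 (SE, adjusted p 0.0827), without DMSO replicate 1 it was 0.58 (adjusted p 0.0602), and without CDDO-Me 24 h replicate 3 it was 0.86 (adjusted p 0.047). It also passed at 72 h by DESeq2 (adjusted p 0.00419), by limma-voom (adjusted p 0.0437), without robust estimation in edgeR (adjusted p 0.048) and with no filter (adjusted p 1.41e-06). USP18, which removes ISG15 and blocks the receptor, had 0.969, 0.531 and 0.801 CPM at 72 h, 0.757, 0.608 and 0.475 CPM at 24 h, and 1.29, 0.417 and 1.35 CPM in DMSO, with −0.76 ± 0.46 (SE, adjusted p 0.541) at 24 h. The ligases HERC5 and HERC6 had 4.70 to 8.91 CPM in all libraries and did not pass.

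The IFIT family, whose proteins bind viral RNA and halt its translation, sits in a cluster on chromosome 10 and gave 2 of the 3 members that fell at 72 h. IFIT2 (ENSG00000119922, chromosome 10, 89283694 to 89309276) had 7.51, 6.42 and 5.87 CPM at 72 h, 9.26, 9.93 and 6.94 CPM at 24 h, and 10.5, 9.90 and 10.6 CPM in DMSO. Every 72 h library was below every DMSO library, and the log2 fold change was −0.65 ± 0.17 (SE, adjusted p 0.032), a level 36.1% lower. At 24 h its difference from DMSO was −0.26 ± 0.16 (SE, adjusted p 0.568), and between 72 h and 24 h it was −0.39 ± 0.17 (SE, adjusted p 0.333). Without 24 h replicate 3 the value between the times was −0.53 (adjusted p 0.0271). IFIT3 (ENSG00000119917, chromosome 10, 89327894 to 89340971) had 14.5, 14.4 and 14.1 CPM at 72 h, 14.4, 15.8 and 14.1 CPM at 24 h, and 15.9, 21.7 and 22.7 CPM in DMSO. All 6 treated libraries were below all DMSO libraries, with −0.48 ± 0.13 (SE, adjusted p 0.048) at 72 h, 28.5% lower, and −0.45 ± 0.13 (SE, adjusted p 0.12) at 24 h, where it passed without DMSO replicate 1, at −0.59 (adjusted p 0.0168). Its treated groups lay together, at −0.04 ± 0.14 between 72 h and 24 h. IFIT1, the sensor of uncapped RNA and neighbour of both, had 15.4, 15.2 and 14.0 CPM at 72 h, 19.3, 17.2 and 8.66 CPM at 24 h, and 15.0, 17.7 and 21.1 CPM in DMSO, with overlapping groups. IFIT5, the fourth family member, had 23.8, 28.6 and 27.4 CPM at 72 h, 20.7, 23.2 and 29.4 CPM at 24 h, and 21.0, 26.8 and 30.9 CPM in DMSO. Its groups overlapped, with log2 fold changes of 0.02 ± 0.15 (SE, adjusted p 0.963) at 72 h and −0.10 ± 0.15 (SE, adjusted p 0.853) at 24 h. In the 9 fits that leave out 1 library, IFIT2 passed in the 3 without a 24 h library and not without any 72 h or DMSO library (adjusted p 0.00316 to 0.174). IFIT3 passed in those without CDDO-Me 24 h replicate 3 or DMSO replicate 1, and not in the other 7 (adjusted p 0.00624 to 0.19). With all libraries IFIT3 also did not pass by limma-voom or without robust estimation in edgeR.

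**Figure D3:**
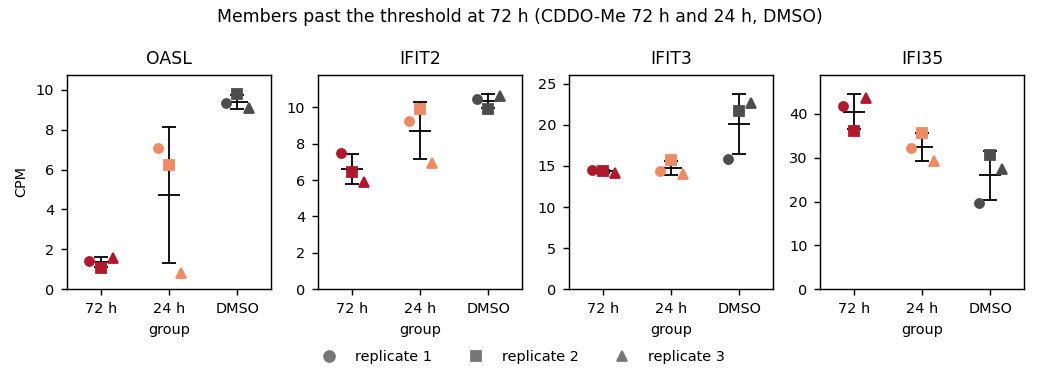
CPM of OASL, IFIT2, IFIT3 and IFI35 in each library of CDDO-Me 72 h, CDDO-Me 24 h and DMSO, with replicate numbers as symbols, the group mean as a bar and the SD as whiskers. The 72 h points of OASL, IFIT2 and IFIT3 lie under all DMSO points, those of IFI35 lie above them, and OASL at 24 h splits into 2 high libraries and 1 low one.

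OASL had the log2 fold change of largest size among the tested members at 72 h. It encodes a protein related to the oligoadenylate synthetases that lacks their enzyme activity and enhances RIG-I signalling (ENSG00000135114, chromosome 12, 121019111 to 121039242). OASL had 1.41, 1.06 and 1.55 CPM at 72 h, 7.10, 6.23 and 0.804 CPM at 24 h, and 9.36, 9.79 and 9.09 CPM in DMSO. The 72 h libraries and 24 h replicate 3 were low, while 24 h replicates 1 and 2 stood nearer to DMSO but below it. The 72 h difference was −2.81 ± 0.66 (SE, adjusted p 0.0468), a level 85.7% lower. At 24 h the difference from DMSO was −1.04 ± 0.58 (SE, adjusted p 0.526), and between 72 h and 24 h it was −1.77 ± 0.68 (SE, adjusted p 0.327). Without 24 h replicate 3 these were −2.81 (adjusted p 4.08e-09) at 72 h, −0.50 (adjusted p 0.0656) at 24 h, and −2.30 (adjusted p 5.76e-07) between 72 h and 24 h. At 72 h OASL passed without each of the 3 libraries of 24 h, and not without any 1 library of 72 h or DMSO, with adjusted p of up to 0.185. With all libraries OASL also did not pass without a filter or with the replicate block.

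Of the other oligoadenylate synthetases, which activate the RNA-degrading enzyme RNase L, OAS3 was the most expressed, with 77.3, 72.0 and 79.0 CPM at 72 h, 97.1, 84.6 and 57.1 CPM at 24 h, and 62.4, 77.0 and 68.0 CPM in DMSO. Its groups overlapped, and the differences were 0.14 ± 0.16 (SE, adjusted p 0.715) at 72 h and 0.20 ± 0.16 (SE, adjusted p 0.669) at 24 h; without 24 h replicate 3 the 24 h value was 0.39 (adjusted p 0.00965). OAS2 had 1.55, 0.849 and 1.01 CPM at 72 h, 1.98, 1.62 and 0.512 CPM at 24 h, and 4.08, 1.04 and 0.919 CPM in DMSO, with DMSO replicate 1 the highest, and −0.60 ± 0.60 (SE, adjusted p 0.753) at 24 h, or 0.44 (adjusted p 0.746) without that library. ISG20, which degrades RNA, had 1.45, 0.796 and 0.694 CPM at 72 h, 1.57, 1.37 and 0.767 CPM at 24 h, and 1.55, 0.573 and 0.580 CPM in DMSO, and its value between 72 h and 24 h was −0.29 ± 0.46 (SE, adjusted p 0.833). OAS1, the radical SAM enzyme gene RSAD2 (viperin) and the nucleotide kinase gene CMPK2 did not reach the filter. The dynamin-like GTPase gene MX1, an inhibitor of influenza virus, had 1.60, 1.43 and 0.801 CPM at 72 h, 1.16, 1.47 and 1.75 CPM at 24 h, and 3.51, 1.20 and 1.45 CPM in DMSO, with −0.68 ± 0.41 (SE, adjusted p 0.414) at 72 h and −0.47 ± 0.40 (SE, adjusted p 0.693) at 24 h. Without DMSO replicate 1, its highest library, these were −0.0482 (adjusted p 0.97) at 72 h and 0.16 (adjusted p 0.884) at 24 h.

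The 6 members that did not reach the filter, OAS1, RSAD2, CMPK2, MX2, BST2 and IFI44L, had their highest CPM in the same library, DMSO replicate 1. Their summed counts were 15, 13 and 7 at 72 h, 25, 21 and 3 at 24 h, and 90, 6 and 16 in DMSO. OAS1 had 0, 3 and 2 counts at 72 h, 6, 4 and 0 at 24 h and 31, 0 and 5 in DMSO. MX2, the HIV-restricting relative of MX1, had 6, 0 and 0 counts at 72 h, 2, 0 and 2 at 24 h and 15, 2 and 2 in DMSO. BST2, or tetherin, which holds budding viruses at the membrane, had 4, 8 and 3 counts at 72 h, 3, 6 and 0 at 24 h and 15, 0 and 3 in DMSO. RSAD2 had 0, 0 and 2 counts at 72 h, 4, 2 and 0 at 24 h and 11, 3 and 2 in DMSO. CMPK2 had 0, 0 and 0 counts at 72 h, 0, 0 and 0 at 24 h and 3, 0 and 0 in DMSO. IFI44L, a relative of IFI44, had 5, 2 and 0 counts at 72 h, 10, 9 and 1 at 24 h and 15, 1 and 4 in DMSO. Outside DMSO replicate 1, no library held more than 10 counts of any of the 6. Of all 5814 genes below the filter with at least 10 counts, 13.8% were highest in DMSO replicate 1. Among low members that were tested, OAS2, MX1, IFITM1 and IRF9 also peaked in DMSO replicate 1, at 4.08, 3.51, 1.96 and 1.86 CPM, while UBE2L6, PARP9, PARP14, IFIH1 and IFI35 had their lowest value there, at 7.65, 8.01, 12.6, 2.43 and 19.7 CPM. These genes were singled out after their values were seen. A list of 10 RNAs drawn up as nuclear-retained held MALAT1, NEAT1, MEG3, KCNQ1OT1, CLK1, CLK4, SRSF5, SNHG1, GAS5 and OIP5-AS1. Where these RNAs lie in the cell was not measured, so their sum is not a measure of nuclear RNA. It also differed between DMSO libraries, with 733 CPM in replicate 1, against 533 and 568 CPM in replicates 2 and 3. The sum was 493 to 539 CPM at 72 h and 544 to 792 CPM at 24 h, and the part of these RNAs in the result was not tested. A count of 0 allows up to 3 counts, which is 0.11 to 0.175 CPM in these libraries and covers counting error only.

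**Figure D4:**
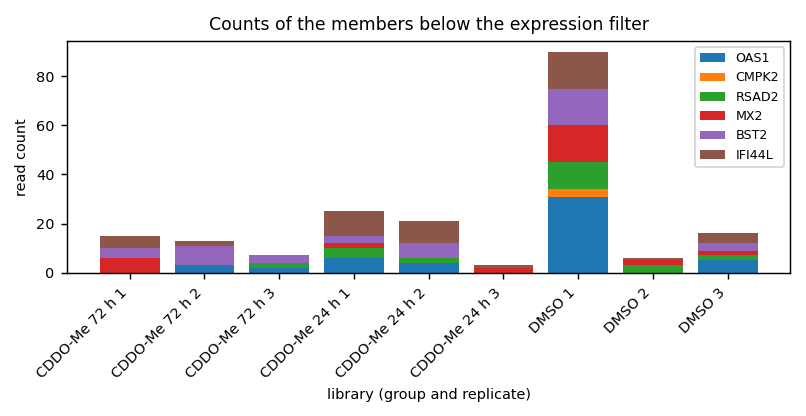
Stacked read counts of the 6 members below the expression filter, by library of CDDO-Me 72 h, CDDO-Me 24 h and DMSO. DMSO replicate 1 reaches 90 counts, and the other 8 libraries hold 3 to 25.

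The membrane proteins that block virus entry or release, and the lymphocyte antigen family gene LY6E, did not pass. IFITM3 had 109, 114 and 109 CPM at 72 h, 123, 103 and 83.7 CPM at 24 h, and 72.2, 94.8 and 98.4 CPM in DMSO. Its 72 h libraries were above all DMSO libraries, with 0.32 ± 0.13 (SE, adjusted p 0.218) at 72 h and 0.22 ± 0.13 (SE, adjusted p 0.556) at 24 h. IFITM1 had 0.824, 0.424 and 0.587 CPM at 72 h, 0.873, 1.27 and 0.402 CPM at 24 h, and 1.96, 0.417 and 0.387 CPM in DMSO, with −0.57 ± 0.63 (SE, adjusted p 0.699) at 72 h, or 0.61 (adjusted p 0.669) without DMSO replicate 1. It shares 32.5% of its exon bases with IFITM2, a close copy with 428 counts per library, against 15.7 for IFITM1, so their reads may be divided between them. IFITM2 had 21.4, 22.4 and 25.3 CPM at 72 h, 21.5, 25.1 and 16.7 CPM at 24 h, and 17.5, 20.8 and 21.9 CPM in DMSO, and its groups overlapped. LY6E had 62.2, 62.8 and 64.0 CPM at 72 h, 67.8, 67.6 and 58.2 CPM at 24 h, and 67.6, 62.0 and 62.1 CPM in DMSO, and its 9 libraries spanned the narrowest range of this group relative to its level.

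The PARP9 and DTX3L pair, a mono-ADP-ribosyltransferase and its ubiquitin ligase partner that strengthen interferon signalling, share a promoter region on chromosome 3, and neither passed with all 9 libraries. PARP9 had 18.6, 19.8 and 17.2 CPM at 72 h, 16.7, 16.2 and 14.5 CPM at 24 h, and 8.01, 13.9 and 16.3 CPM in DMSO. All 72 h libraries were above all 24 h and all DMSO libraries, with 0.54 ± 0.19 (SE, adjusted p 0.135). At 72 h it was 0.30 (adjusted p 0.251) without DMSO replicate 1, its lowest library, and 0.76 (adjusted p 0.0416) without DMSO replicate 3, where it passed. DTX3L had 49.3, 49.6 and 43.6 CPM at 72 h, 44.4, 45.4 and 40.5 CPM at 24 h, and 30.9, 48.2 and 42.7 CPM in DMSO, with overlapping groups and 0.23 ± 0.13 (SE, adjusted p 0.392) at 72 h and 0.10 ± 0.13 (SE, adjusted p 0.825) at 24 h. PARP14, a neighbour that is also a mono-ADP-ribosyltransferase, had 29.3, 28.2 and 27.9 CPM at 72 h, 30.4, 33.2 and 19.8 CPM at 24 h, and 12.6, 23.3 and 21.5 CPM in DMSO. Its difference was 0.53 ± 0.23 (SE, adjusted p 0.354) at 24 h, and without 24 h replicate 3 it was 0.73 (adjusted p 0.0319). The paired virus restriction genes SAMD9 and SAMD9L, side by side on chromosome 7, differed in direction at 72 h. SAMD9 had 28.9, 29.2 and 30.7 CPM at 72 h, 26.2, 33.5 and 28.6 CPM at 24 h, and 30.7, 35.3 and 38.9 CPM in DMSO, so the 72 h libraries were just below DMSO. SAMD9L had 14.5, 17.2 and 16.3 CPM at 72 h, 12.2, 14.4 and 10.3 CPM at 24 h, and 11.6, 13.4 and 12.9 CPM in DMSO, so the 72 h libraries were above both other groups, with 0.38 ± 0.14 (SE, adjusted p 0.249) between 72 h and 24 h. Neither passed, and the difference between the pair was not tested.

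IFI35 was the member that rose at 72 h. It encodes an interferon-induced leucine zipper protein that partners NMI (ENSG00000068079, chromosome 17, 43006725 to 43014456). IFI35 had 41.9, 36.1 and 43.7 CPM at 72 h, 32.3, 35.7 and 29.3 CPM at 24 h, and 19.7, 30.7 and 27.5 CPM in DMSO. All 72 h libraries were above all 24 h and all DMSO libraries. The log2 fold change was 0.64 ± 0.14 (SE, adjusted p 0.0151) at 72 h, 1.56-fold, and 0.32 ± 0.14 (SE, adjusted p 0.365) at 24 h, with 0.32 ± 0.14 (SE, adjusted p 0.342) between 72 h and 24 h. It passed in 7 of the 9 fits that leave out 1 library, all but those without CDDO-Me 72 h replicate 1 or 3 (adjusted p 0.00427 to 0.09), and without DMSO replicate 1, its lowest library, the value was 0.48 (adjusted p 0.036). IFI6 had 54.7, 52.6 and 52.8 CPM at 72 h, 59.1, 52.2 and 29.8 CPM at 24 h, and 43.0, 42.9 and 42.2 CPM in DMSO. Apart from 24 h replicate 3, all treated libraries were above all DMSO libraries, and the value at 72 h was 0.32 ± 0.19 (SE, adjusted p 0.42) with all libraries and 0.32 (adjusted p 0.00623) without that one. At 24 h the IFI6 value was 0.13 ± 0.19 (SE, adjusted p 0.838) with all libraries and 0.38 (adjusted p 0.00574) without it.

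TRIM22, a ubiquitin ligase that restricts retroviruses, had 7.70, 6.26 and 7.90 CPM at 72 h, 5.65, 7.04 and 4.46 CPM at 24 h, and 4.39, 5.36 and 6.34 CPM in DMSO, with 0.44 ± 0.20 (SE, adjusted p 0.261) at 72 h. XAF1, an antagonist of the apoptosis inhibitor XIAP, had 2.03, 2.81 and 1.44 CPM at 72 h, 2.56, 3.80 and 1.06 CPM at 24 h, and 1.19, 1.51 and 1.69 CPM in DMSO. Its 24 h value was 0.73 with all libraries, where it did not pass, and 1.12 (adjusted p 0.0273) without replicate 3. In the 9 fits that leave out 1 library the XAF1 value at 24 h was 0.25 to 1.12, and it passed in 1. EPSTI1 had 2.76, 2.44 and 3.04 CPM at 72 h, 1.22, 2.23 and 2.81 CPM at 24 h, and 1.29, 2.08 and 1.64 CPM in DMSO, with all 72 h libraries above all DMSO libraries and 0.71 ± 0.31 (SE, adjusted p 0.22). IFI44 had 8.27 to 12.3 CPM in all libraries, with overlapping groups. IFI27, a protein of the mitochondrial and nuclear membranes, had 0.921, 0.318 and 0.160 CPM at 72 h, 0.524, 0.557 and 0.0365 CPM at 24 h, and 0.672, 0.469 and 0.242 CPM in DMSO, and its value between 72 h and 24 h was 0.45 ± 0.77 (SE, adjusted p 0.847).

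The 4 antigen presentation members were abundant and did not pass with all 9 libraries, and their 24 h libraries were widely spread. HLA-B (ENSG00000234745, chromosome 6, 31269491 to 31357188) had 330.4, 335 and 333 CPM at 72 h, 549, 534 and 331 CPM at 24 h, and 417, 354 and 410.1 CPM in DMSO. At 24 h replicates 1 and 2 were above all DMSO libraries and replicate 3 was below them, and the 3 libraries of 72 h lay below DMSO and within 5 CPM of each other. HLA-B differed by −0.24 ± 0.16 (SE, adjusted p 0.457) at 72 h, by 0.26 ± 0.16 (SE, adjusted p 0.55) at 24 h and by −0.50 ± 0.16 (SE, adjusted p 0.192) between 72 h and 24 h. Without 24 h replicate 3 these were −0.24 (adjusted p 0.0159) at 72 h, 0.46 (adjusted p 0.000384) at 24 h and −0.70 (adjusted p 2.99e-06) between 72 h and 24 h.

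HLA-C (ENSG00000204525, chromosome 6, 31268749 to 31272130) had 382, 373 and 372 CPM at 72 h, 529, 503 and 324 CPM at 24 h, and 387, 319 and 352 CPM in DMSO. At 24 h replicates 1 and 2 were above all DMSO libraries and replicate 3 lay among them, and the 72 h libraries overlapped DMSO. HLA-C differed by 0.09 ± 0.15 (SE, adjusted p 0.809) at 72 h and 0.36 ± 0.15 (SE, adjusted p 0.334) at 24 h, and without 24 h replicate 3 by 0.55 (adjusted p 0.000107) at 24 h and −0.45 (adjusted p 0.000524) between 72 h and 24 h. Between 72 h and 24 h HLA-C did not pass with all libraries. In the 9 fits that leave out 1 library that value was −0.45 to −0.14, and it passed in 1. HLA genes are close copies of each other and vary in sequence between people, so reads of AC16 cells may be divided among them or lost, and their counts are uncertain. B2M, the shared light chain, had 507, 517 and 515 CPM at 72 h, 536, 627 and 439 CPM at 24 h, and 472, 417 and 566 CPM in DMSO, with overlapping groups. TAP1, a subunit of the peptide transporter, had 52.2, 53.8 and 50.3 CPM at 72 h, 62.5, 62.2 and 32.9 CPM at 24 h, and 45.8, 41.1 and 39.4 CPM in DMSO. All 72 h libraries and 24 h replicates 1 and 2 were above DMSO, and 24 h replicate 3 was below it. TAP1 differed by 0.31 ± 0.20 (SE, adjusted p 0.473) at 72 h and 0.31 ± 0.20 (SE, adjusted p 0.592) at 24 h, and without that library by 0.31 (adjusted p 0.0111) at 72 h and 0.57 (adjusted p 0.000301) at 24 h.

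**Figure D5:**
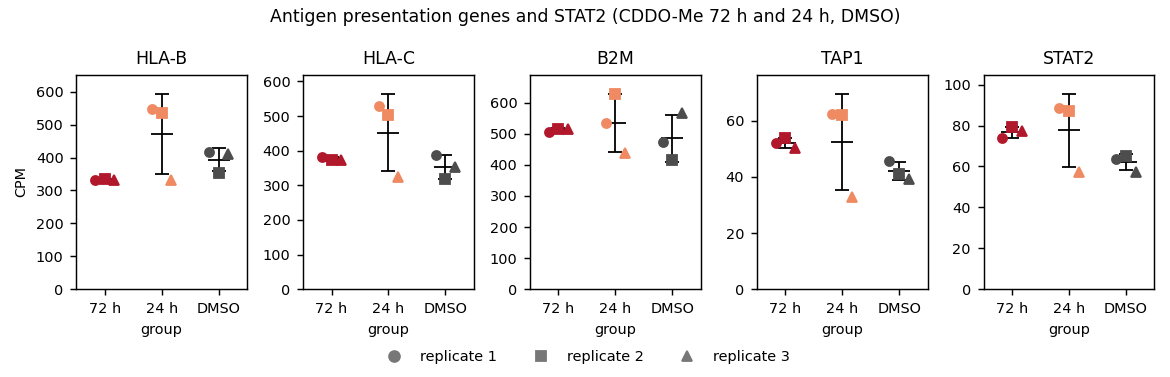
CPM of HLA-B, HLA-C, B2M, TAP1 and STAT2 in each library of CDDO-Me 72 h, CDDO-Me 24 h and DMSO, with replicate numbers as symbols, the group mean as a bar and the SD as whiskers. In each panel CDDO-Me 24 h replicate 3 (triangle) lies below replicates 1 and 2, and the 72 h points lie close together.

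Genes before and after these members in the pathway were listed beside them. Of 13 interferon genes 0 passed the filter: 11 or 12 of them were at 0 in each library and their summed counts were 1 to 7, most of them from IFNE. The transcripts of these 13 ligand genes were thus at or near 0 at this depth, and other interferon genes were not listed. Of 8 tested genes of receptors and kinases 0 passed in any comparison. Of 16 tested genes of sensing and induction, 1 fell at 72 h against DMSO (6.02% of all tested genes passed there in either direction): TRAF3, an adaptor below the RNA sensors, had 51.4, 49.0 and 47.9 CPM at 72 h, 51.6, 52.6 and 66.7 CPM at 24 h, and 71.0, 62.9 and 59.9 CPM in DMSO, with −0.39 ± 0.11 (SE, adjusted p 0.0448). Its 72 h libraries lay below all DMSO libraries.

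Of 12 tested genes of other factors and feedback, 2 rose at 72 h, where 2.89% of all tested genes did. NLRC5, the transactivator of class I genes, had 71.6, 68.9 and 73.5 CPM at 72 h, 70.7, 64.8 and 66.1 CPM at 24 h, and 48.1, 56.4 and 55.7 CPM in DMSO, with all 72 h and 24 h libraries above DMSO and 0.42 ± 0.08 (SE, adjusted p 0.00815) at 72 h. IRF2, which competes with IRF1 at the same elements, had 24.9, 23.8 and 23.6 CPM at 72 h, 21.8, 23.3 and 18.1 CPM at 24 h, and 16.0, 17.2 and 18.8 CPM in DMSO, with the 72 h libraries above all others and 0.47 ± 0.12 (SE, adjusted p 0.0257). Of 18 tested genes of antigen presentation outside the 46, 1 rose at 72 h (2.89% of all tested genes) and 1 at 24 h (0.969% of all). PSME1, a subunit of the proteasome activator PA28, had 61.6, 63.2 and 63.1 CPM at 72 h, 61.0, 57.9 and 55.1 CPM at 24 h, and 45.5, 47.4 and 51.4 CPM in DMSO, with 0.38 ± 0.08 (SE, adjusted p 0.0113) at 72 h. TAP2, the partner of TAP1 in the transporter, had 31.6, 35.7 and 34.2 CPM at 72 h, 36.4, 38.5 and 40.1 CPM at 24 h, and 27.7, 30.1 and 28.3 CPM in DMSO, with 0.42 ± 0.09 (SE, adjusted p 0.0236) at 24 h. All 24 h libraries of TAP2 were above all others, replicate 3 included.

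Of 36 tested interferon-stimulated genes outside the 46, 3 rose at 72 h (2.89% of all tested genes), and at 24 h 1 rose (0.969% of all) and 1 fell (1.18% of all). CASP1, the protease that activates interleukin 1 beta, had 7.36, 8.07 and 8.17 CPM at 72 h, 5.88, 7.14 and 4.68 CPM at 24 h, and 3.15, 4.90 and 4.55 CPM in DMSO, with 0.90 ± 0.20 (SE, adjusted p 0.016) at 72 h. CASP4, which senses bacterial lipopolysaccharide, had 30.5, 30.8 and 31.1 CPM at 72 h, 26.2, 27.6 and 37.1 CPM at 24 h, and 18.3, 21.0 and 22.6 CPM in DMSO, with 0.58 ± 0.13 (SE, adjusted p 0.0163) at 72 h and 0.56 ± 0.13 (SE, adjusted p 0.0385) at 24 h. PARP10 had 64.9, 56.1 and 59.8 CPM at 72 h, 61.8, 62.7 and 44.5 CPM at 24 h, and 34.9, 46.5 and 41.8 CPM in DMSO, with 0.55 ± 0.13 (SE, adjusted p 0.0255) at 72 h. GBP1, a guanylate-binding GTPase induced by interferon gamma, had 70.9, 69.6 and 68.0 CPM at 72 h, 43.0, 41.0 and 46.2 CPM at 24 h, and 48.5, 62.1 and 66.9 CPM in DMSO. Its 24 h libraries, replicate 3 among them, were below all others, with −0.45 ± 0.11 (SE, adjusted p 0.0439) at 24 h and 0.23 ± 0.11 (SE, adjusted p 0.254) at 72 h. The median log2 fold changes at 72 h and 24 h were 0.08 and −0.07 for receptors and kinases, −0.04 and 0.04 for sensing and induction, 0.21 and 0.12 for other factors, 0.04 and 0.08 for other antigen presentation genes and 0.10 and 0.09 for other interferon-stimulated genes. For the 40 tested members they were 0.13 and 0.16. These calls outside the 46 did not hold in every fit: of the 9 fits that leave out 1 library, NLRC5 passed in 8, PSME1 and CASP1 in 5, IRF2, PARP10 and CASP4 at 72 h in 4, TAP2 in 3, and TRAF3, GBP1 at 24 h and CASP4 at 24 h in 2. The highest adjusted p in such fits was 0.21, for GBP1 at 24 h.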

How the data were processed

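Polyadenylated RNA of 9 AC16 libraries was sequenced with an unstranded kit, per the labels' protocols, so reads do not tell a gene from its antisense partner. The authors deposited whole-number read counts per Ensembl gene, not normalized. Per the submitters' processing notes the tools were STAR, SAMtools and featureCounts of Subread, on GRCh38; how multi-mapping reads were counted is not given in the sources used here. Coordinates are those of the deposited table. Some titles write CDDO; the treatment labels, which name CDDO-Me, were followed.

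From the counts, edgeR 4.0.16 in R 4.3.3 (quasi-likelihood, robust, TMM, filterByExpr; 14965 genes tested) was fitted to all 9 libraries with 3 group means. Benjamini-Hochberg adjustment ran over all tested genes, with a threshold of 0.05, and SE was the log2 fold change over the root of F. CPM used TMM library sizes, and RPKM divided CPM by the deposited exon length. Tests ran on simulated data first. Whether replicates came from separate cultures is not in the labels, and the p-values then reflect only the spread of these libraries, which may be technical. No columns were identical, and the lowest ratio of chi-square to degrees of freedom between replicates was 2.08. Totals of 16898977 to 27910031 counts make 3 counts worth 0.11 to 0.175 CPM.

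Members and lists were chosen with earlier results of these data known. Log2 fold changes are given for members past the threshold, the most expressed of each role, the 5 largest of each comparison, up to 4 called genes of each other list, and members that passed without CDDO-Me 24 h replicate 3. Cell markers and the RNAs listed as nuclear-retained are given as counts and sums, with a test result for markers past the threshold. Promoters are from RefSeq (GRCh38.p14). Alternatives were other size factors (RLE, upper quartile), filters and robustness, a replicate block, only the 2 groups compared, DESeq2 1.42.0, limma-voom (limma 3.58.1) with and without sample weights, and leaving out each library. Leaving out both CDDO-Me 24 h replicate 3 and DMSO replicate 1 was chosen after seeing the data.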

Additional observations from a re-analysis of the deposited data

Results flagged for a closer look

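GBP1 stood out because its change from DMSO differed between the treatment times by a test of the difference itself. The vehicle had only the 72 h time, so culture time and treatment time cannot be told apart in this difference. Its log2 fold change was 0.23 ± 0.11 (SE, adjusted p 0.254) at 72 h and −0.45 ± 0.11 (SE, adjusted p 0.0439) at 24 h against the same DMSO libraries, and 72 h against 24 h of CDDO-Me gave 0.68 ± 0.11 (SE, adjusted p 0.00659) by edgeR's quasi-likelihood test. The libraries held 70.9, 69.6 and 68.0 CPM at 72 h, 43.0, 41.0 and 46.2 CPM at 24 h, and 48.5, 62.1 and 66.9 CPM in DMSO, so the 3 libraries of 72 h were higher than the 3 of 24 h, with no overlap. Without any 1 library the difference was 0.65 to 0.73, with an adjusted p of 0.00024 to 0.0542, and it passed in 8 of 9 such fits. GBP1 is outside the 46 genes, and none of the 40 tested members met this criterion with all 9 libraries.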

How the results depend on the processing

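Values follow the order 72 h against DMSO, 24 h against DMSO, 72 h against 24 h. With all libraries 4, 0 and 0 members and 901, 321 and 152 genes passed. Without a filter these were 10, 4 and 1 members and 1249, 662 and 507 genes. The 10 members included OAS1, which did not reach the filter, and did not include OASL. With DESeq2 they were 6, 0 and 1 members and 1204, 546 and 394 genes. With only the 2 groups compared, 9 members and 1776 genes passed at 72 h and 100 genes at 24 h. With sample weights in limma-voom, which gave CDDO-Me 24 h replicate 3 a weight of 0.152, 14, 8 and 4 members and 2593, 1656 and 2918 genes passed. Leaving out both that library and DMSO replicate 1 gave 15, 18 and 9 members and 2724, 3464 and 3471 genes. Leaving out 1 library each gave 0 to 10, 0 to 9 and 0 to 4 members and 401 to 1972, 134 to 1657 and 32 to 1843 genes; the highest were without CDDO-Me 24 h replicate 3, and 0 members passed at 72 h without CDDO-Me 72 h replicate 1 or 3. The cause was not tested.

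Deviations of same-numbered libraries correlated at −0.028 to 0.082, and those of libraries with different numbers at −0.109 to 0.040. These values do not settle whether the replicate numbers pair the libraries. With the replicate block 3, 0 and 0 members and 963, 358 and 219 genes passed, and the call of OASL was the only member call lost.

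Some differences, none of them past the threshold with all libraries, changed sign. ISG15 at 72 h was −0.00254 with upper quartile factors. With sample weights, OAS2 at 24 h was 0.33, IFIT5 at 72 h −0.0201, IFITM1 at 72 h 0.16 and IFI27 between 72 h and 24 h −0.22. Without both libraries, DTX3L at 24 h was −0.0188, OAS2 at 24 h 0.87, IFIT5 at 72 h −0.12, IFITM1 at 72 h 0.61 and IFI27 between 72 h and 24 h −0.18. Leaving out 1 library each gave ISG15 −0.0342 to 0.0324, IFIT5 −0.12 to 0.16 and IFITM1 −0.95 to 0.61 at 72 h; MX1 −0.74 to 0.16, DTX3L −0.0670 to 0.24, OAS2 −0.96 to 0.44, IFIT5 −0.26 to 0.0388 and IFI6 −0.0645 to 0.38 at 24 h; and IFIT3 −0.0683 to 0.0250 and IFI27 −0.52 to 0.96 between 72 h and 24 h. Without both libraries IFIT5 at 24 h was −0.39 and IFIT3 between 72 h and 24 h −0.0715. Genes under 1 RPKM, such as IFI27 and IFITM1, rest on few counts.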
